A study of Mus musculus and Bos taurus with 6 samples.

Results

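The miRNA described here are miR-320, miR-484, miR-877, miR-702 and miR-1981, a set named for precursors made without the nuclear endonuclease Drosha. How the precursors were made was not tested. Only the hairpins of miR-877 and miR-1981 met the definition of a mirtron used below at both ends. The miRNA were chosen by name in the lists of the mouse and bovine libraries, with the arm taken from the file where the name has none. The rule found 7 of 1750 lines in the mouse list and 6 of 1539 in the bovine list, or 13 of 3289 in all. The mouse members were mmu-miR-320-3p, mmu-miR-484, mmu-miR-877-5p, mmu-miR-877-3p, mmu-miR-702-3p, mmu-miR-1981-5p and mmu-miR-1981-3p. The bovine list held bta-miR-320a, bta-miR-320b, bta-miR-484 and bta-miR-877, plus miR-320-5p and miR-877-3p under their mouse names.

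Small RNA was sequenced in 6 libraries of lactating mammary gland. The mouse group had 2 libraries of total RNA from FVB/N females at lactation day 12, and the AGO2 group had 2 libraries of RNA co-immunoprecipitated with Argonaute-2 from mouse gland of the same strain and day. The bovine group had 2 libraries of total RNA, each from a pool of biopsies of 2 Holstein cows in mid-lactation on the low forage (LF) diet. Mouse and AGO2 RNA were extracted with the RNA NOW kit and bovine RNA with the Nucleospin miRNA kit. The study's mice were primiparous, and the lymph node was removed from their glands, whereas its cows were multiparous. In bovine over mouse, species, parity, tissue sampling, kit and pooling therefore cannot be told apart. The study took mouse gland from 2 mice and states that its 2 AGO2 libraries came from 2 animals. The labels do not say which animal each mouse or AGO2 library came from. The p-values measure the spread between these libraries, in which animal and technical differences cannot be told apart.

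The counts assigned to listed miRNA summed to between 3909166 and 10613807 per library, and levels are given as counts per 1000000 of this sum (RPM). The 5 epithelial markers miR-200a, 200b, 200c, 141 and 205 were counted in every library, and miR-200a was the largest of them in mouse and AGO2. They summed to 155444 and 181734 RPM in mouse, 334535 and 365137 RPM in AGO2, and 76764 and 78565 RPM in bovine. Erythroid markers summed to 13343 and 6504 RPM in mouse, 32468 and 15527 RPM in AGO2, and 1709 and 1098 RPM in bovine. Within the epithelial list directions differed: in AGO2, miR-200a had a log2 fold change of 1.58 and miR-200c of -1.71 against mouse, and in bovine miR-200a had -3.29 and miR-205 2.00. Endothelial miR-126a-3p (miR-126-3p in bovine) went the other way to the sums above. It had 16270 and 20468 RPM in mouse, 6776 and 6711 RPM in AGO2, and 38701 and 30592 RPM in bovine. The arms differed, since in AGO2 miR-126a-3p had a log2 fold change of -1.30 and miR-126a-5p of 1.18 against mouse. Stromal markers summed to 51428 and 65763 RPM in mouse, 32424 and 31156 RPM in AGO2, and 69475 and 54855 RPM in bovine. The estimates of their 2 members differed in sign: miR-143 had log2 fold changes of -0.79 in AGO2 and -0.48 in bovine, and miR-145 had 0.32 and 1.16. Of these only miR-145 in bovine passed the test (edgeR adjusted p = 0.0239). The others had edgeR adjusted p from 0.0802 to 0.641. Leukocyte markers lay between 863 and 2402 RPM and skeletal muscle markers between 27.9 and 782 RPM over the 6 libraries. Directions differed in these lists too. In bovine, miR-150 had a log2 fold change of 2.27 and miR-223 of -1.83, and in AGO2 miR-133a had 2.69 and miR-1a -2.82. The part of cell make-up in the results was not tested, and fewer cells of a type and less RNA per cell cannot be told apart in tissue.

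In the usual pathway, Drosha with its partner DGCR8 cuts a hairpin out of a long primary transcript, and Dicer then cuts the hairpin to a duplex of which an Argonaute protein keeps 1 strand. Mirtrons bypass the first cut, since splicing itself frees a short intron that folds into a hairpin. The precursor of miR-320 bypasses it in another way: it is a short transcript with a capped 5′ end, and its 3p strand is the one kept. AGO2 is the Argonaute protein that can itself cut a target. The AGO2 libraries hold small RNA recovered with it, which need not all have been bound to it.

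The mature sequences are shown because each member has its own seed, the stretch from base 2 to base 8 that pairs with targets. Seeds are in capitals and sequences run 5′ to 3′ as deposited.
mmu-miR-320-3p and bta-miR-320a: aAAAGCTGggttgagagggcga
mmu-miR-484 and bta-miR-484: tCAGGCTCagtcccctcccgat
mmu-miR-877-5p and bta-miR-877: gTAGAGGAgatggcgcaggg
mmu-miR-877-3p: tGTCCTCTtctccctcctccca
mmu-miR-702-3p: tGCCCACCctttaccccgctcc
mmu-miR-1981-5p: gTAAAGGCtgggcttagacgtggc
mmu-miR-1981-3p: cATCTAACcctggcctttgac
bta-miR-320b: aGCTGGGTtgagagggtggt

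The 7 mouse members had 7 distinct seeds, so no pair of them forms a seed family. Mouse and bovine shared the whole mature sequence of miR-320-3p, miR-484 and miR-877-5p, the first 3 lines above. RefSeq (GRCm38.p6) held 6 of the 7 mouse sequences, and all 6 were equal to the deposited ones. GC content ran from 52.4% in miR-1981-3p to 68.2% in miR-702-3p, against a median of 45.5% over the 171 miRNA that reached 100 RPM in a mouse library.

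The hairpins of miR-877 and miR-1981 filled an annotated intron exactly. In the GENCODE annotation of GRCm38, Mir877 lay at chr17:35960730-35960814 on the minus strand and coincided at both ends with an intron of 85 bases of Abcf1, which encodes a translation factor of the ABC family. Mir1981 lay at chr1:184822407-184822488 on the minus strand and coincided with an intron of 82 bases of Marc2, which encodes a mitochondrial reductase. Their RefSeq hairpins are shown with the first and last 2 bases in capitals, the GT and AG that mark the ends of an intron.
Mir877: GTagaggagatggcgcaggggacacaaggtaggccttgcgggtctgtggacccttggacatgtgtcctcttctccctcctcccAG
Mir1981: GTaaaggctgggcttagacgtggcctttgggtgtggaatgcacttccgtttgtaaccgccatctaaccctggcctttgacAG

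Both 5p sequences therefore start with the first base of the intron, as the shared gTA at their 5′ ends shows. With a tolerance of 5 nt at both ends of an intron of the same strand, 23 of 2202 annotated mouse hairpins (1.04%) met the definition of a mirtron. Another 216 (9.81%) met it at 1 end.

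The other hairpins were placed differently. Mir702 at chr5:136991433-136991541 on the plus strand met the definition at 1 end: it began 9 bases before an intron of 102 bases of Plod3, a collagen-modifying enzyme, in coding sequence, and ended 2 bases before the end of that intron. Mir320 at chr14:70443510-70443591 on the plus strand lay outside any other annotated gene, 63 bases upstream of the start of Polr3d, a subunit of RNA polymerase III transcribed from the other strand. Mir484 at chr16:14159626-14159692 on the plus strand lay opposite Marf1 and 3649 bases upstream of the annotated start of Nde1. No bovine annotation was used.

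miR-320-3p was the most abundant member in total RNA of both species, and miR-484 was the most abundant in AGO2. miR-320-3p was counted at 1815 and 203 RPM in the mouse libraries, 324 and 187 RPM in the AGO2 libraries, and as miR-320a at 4092 and 2894 RPM in the bovine libraries. Both bovine libraries were above all mouse and AGO2 libraries, whereas the mouse and AGO2 ranges overlapped. The share of all miRNA with bovine libraries set apart in this way was not counted. Means were 1009 ± 1140 RPM in mouse, 256 ± 97.0 RPM in AGO2 and 3493 ± 847 RPM in bovine (SD, n = 2).

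miR-484 was counted at 196 and 123 RPM in mouse, 579 and 1529 RPM in AGO2, and 62.2 and 48.0 RPM in bovine. The 3 groups did not overlap, with bovine lowest and AGO2 highest. The share of all miRNA whose groups separate in this way was not counted, here or where libraries are compared below. Means were 160 ± 51.4 RPM in mouse, 1054 ± 672 RPM in AGO2 and 55.1 ± 10.1 RPM in bovine (SD, n = 2). Counting error was small beside these spreads, as the Wilson 95% interval of the lower mouse library ran from 116 to 131 RPM. Intervals and limits given here cover counting error only.

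**Figure D1:**
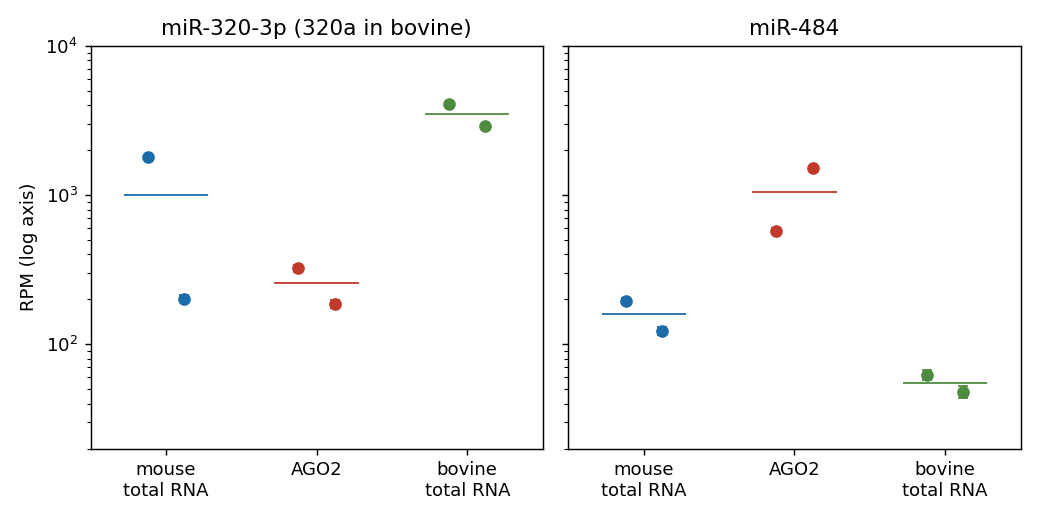
Level of miR-320-3p (left, miR-320a in bovine) and miR-484 (right) in each library, in RPM on a log axis, with Wilson 95% intervals (mostly smaller than the points) and a line at the mean of 2 libraries. miR-320-3p spans 203 to 1815 RPM within mouse, whereas miR-484 lies at 123 and 196 RPM in mouse, 579 and 1529 RPM in AGO2 and 48.0 and 62.2 RPM in bovine.

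The balance of both miRNA inside a library does not depend on the scaling between libraries. miR-320-3p had 9.26 and 1.64 counts per count of miR-484 in the mouse libraries, 0.561 and 0.122 in the AGO2 libraries, and 65.8 and 60.3 in the bovine libraries. All AGO2 libraries were below all mouse libraries, and these were below the bovine ones. The ratio was not tested. Together the members took 0.204% and 0.0336% of the counts in mouse, 0.0903% and 0.173% in AGO2, and 0.416% and 0.295% in bovine.

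The mouse libraries differed more in miR-320-3p than in any other of 171 miRNA that reached 100 RPM in either. Its level was 8.95-fold higher in library 1 than in library 2, a log2 ratio of 3.16, where the SD of this ratio over the 171 was 0.93 and its median 0.24. The log2 ratio of miR-484 was 0.67, and 74 miRNA had a larger one in size. Across these miRNA the ratio rose with GC content, with a Spearman correlation of 0.513 between 2 libraries that share their list and protocol. In AGO2 the log2 ratio of library 1 over 2 was 0.79 for miR-320-3p and -1.40 for miR-484, with a correlation with GC content of 0.123 over 167 miRNA. The bovine libraries stood closer together, with a log2 ratio of 0.50 for miR-320a and an SD of 0.31 over 172 miRNA. The part of base composition in the level of miR-320-3p was not tested beyond the fits with the GC trend removed that are given with both comparisons.

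**Figure D2:**
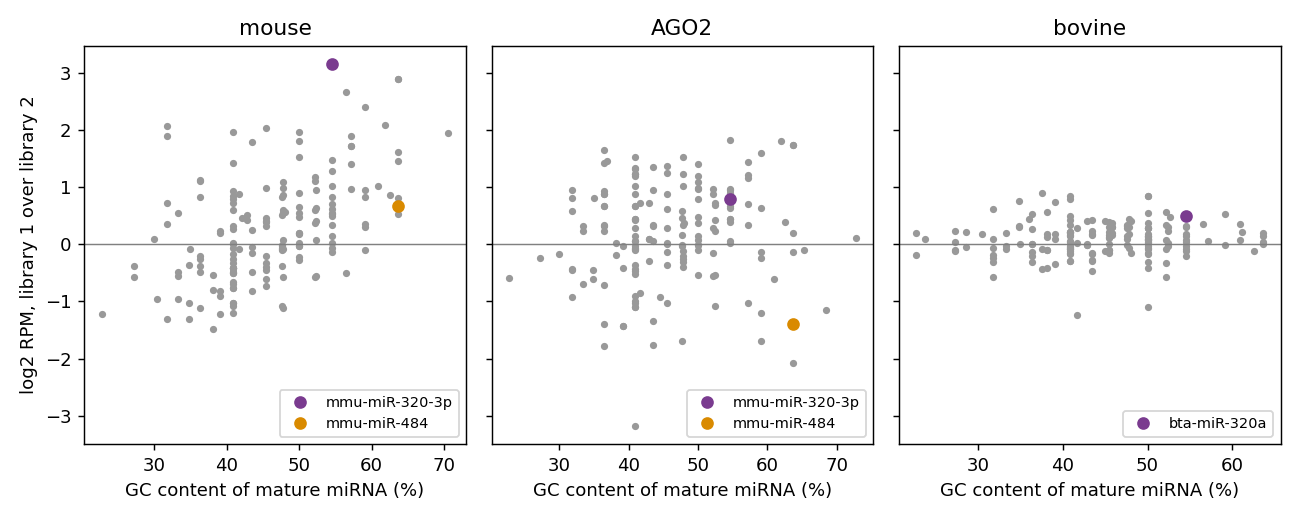
Log2 ratio of RPM in library 1 over library 2 against the GC content (%) of the mature miRNA, for miRNA that reached 100 RPM in a library of the group (171 in mouse, 167 in AGO2, 172 in bovine). miR-320-3p, with a log2 ratio of 3.16, is the highest point of the mouse panel, and the AGO2 panel has miR-484 at -1.40.

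The comparison of AGO2 with mouse total RNA asks which miRNA are enriched or depleted in the complex. miR-484 was higher in AGO2, and for miR-320-3p the difference did not pass the test. The quasi-likelihood test of edgeR, adjusted by Benjamini and Hochberg, was run over the 299 miRNA that exceeded the study's minimum count in a library, of which 83 (27.8%) were called at an adjusted p under 0.05. Of the 7 mouse members 3 passed the filter, and 1 of these 3 was called, a share near that of all tested miRNA.

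miR-484 rose 7.52-fold in AGO2, with a log2 fold change of 2.91 ± 0.70 (SE), a 95% interval from 1.45 to 4.38 and an edgeR adjusted p of 0.00337. Both AGO2 libraries were above both mouse libraries, and 90.3% of the tested miRNA had a log2 fold change at or below its own. It was called under every alternative tried, with log2 fold changes from 2.11 to 3.80 as each library was left out and a highest edgeR adjusted p of 0.0493, without AGO2 library 2. A fit without a library leaves its group with 1, which is assumed to vary as the libraries of the other group do. miR-320-3p had a log2 fold change of -1.81 ± 0.78 (SE), a 95% interval from -3.44 to -0.17 and an edgeR adjusted p of 0.0832. Its value rests on mouse library 1: the log2 fold change was 0.43 without that library (edgeR adjusted p = 0.732) and -2.70 without mouse library 2 (edgeR adjusted p = 0.00407). With the trend on GC content removed it was -1.67 and passed the test (edgeR adjusted p = 0.0344).

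The comparison of bovine with mouse total RNA asks how the miRNA content of the lactating gland differs between the species. miR-484 was lower in bovine, and the higher level of miR-320a did not pass the test. The same test ran over 152 of 251 miRNA matched between the species by the study, those that reached 100 RPM in any of the 4 libraries, of which 88 (57.9%) were called. Of the members 2 were tested and 1 was called, a share near that of all tested miRNA.

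miR-484 had a bovine over mouse log2 fold change of -2.01 ± 0.41 (SE), a 95% interval from -3.07 to -0.94 and an edgeR adjusted p of 0.0134. It passed the filter only through the mouse libraries, the group where it was high. Without a filter its log2 fold change was -2.07 (edgeR adjusted p = 0.00177). Both bovine libraries were below both mouse libraries. The call was lost without bovine library 1 (log2 fold change -2.22, edgeR adjusted p = 0.0904) or bovine library 2 (-1.97, edgeR adjusted p = 0.134). miR-320-3p had a log2 fold change of 1.30 ± 1.02 (SE), with a 95% interval from -1.35 to 3.94 and an edgeR adjusted p of 0.317, although both bovine libraries were above both mouse libraries. The value again moved with the mouse libraries, to 3.61 without library 1 (edgeR adjusted p = 4.66e-06) and 0.43 without library 2 (edgeR adjusted p = 0.0480). With the trend on GC content removed it was 1.61 (edgeR adjusted p = 0.119). Both comparisons share the mouse libraries.

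**Figure D3:**
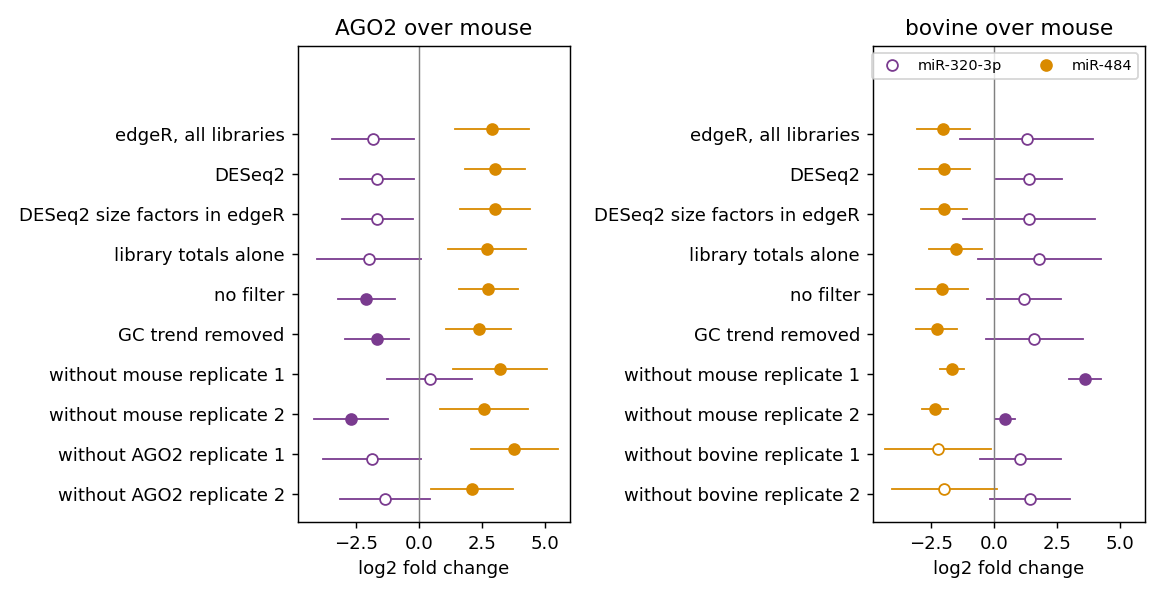
Log2 fold change of miR-320-3p and miR-484 in AGO2 over mouse (left) and bovine over mouse (right), in the main edgeR fit (top line) and under alternatives, with 95% intervals as lines and filled points where the adjusted p is under 0.05. miR-484 is at 2.91 and -2.01 in the main fits, and miR-320-3p runs from -2.70 to 0.43 on the left and from 0.43 to 3.61 on the right as mouse libraries are left out.

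The miRNA of the intron hairpins were rare in all libraries. miR-877-5p had 20 counts (2.15 RPM) in mouse library 1 and 0 in mouse library 2, and 0 and 3 counts in the AGO2 libraries. In bovine, miR-877 had 68 and 53 counts, or 7.23 and 4.99 RPM, above both mouse libraries. It lay under the filter of the species comparison. In the fit without a filter its bovine over mouse log2 fold change was 1.90 ± 0.99 (SE; edgeR adjusted p = 0.112).

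miR-1981-5p was the most abundant mirtron product in mouse, with 30.3 and 7.98 RPM in total RNA and 0 and 5.16 RPM in AGO2. Both mouse libraries were above both AGO2 libraries, but the log2 fold change of -2.63 ± 1.91 (SE) did not pass the test (edgeR adjusted p = 0.289). It passed the filter through mouse library 1 alone, and its log2 fold change was -1.33 without AGO2 library 1 (edgeR adjusted p = 0.436). A count of 0 in AGO2 library 1 allows up to 3 counts, or 0.767 RPM. Its other arm, miR-1981-3p, was at 0.753 and 1.67 RPM in mouse and at 0 and 7.34 RPM in AGO2, so that the AGO2 libraries lay on either side of the mouse ones.

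miR-702-3p was at 0 in both mouse libraries and AGO2 library 1, and had 8 counts in AGO2 library 2. miR-877-3p had 1 count in mouse library 1 and 1 in AGO2 library 2. In the fit without a filter the 5 mouse members other than miR-320-3p and miR-484 had edgeR adjusted p from 0.514 to 0.874 for AGO2 over mouse. None of these 5 passed the test in that fit, which does not show that they did not differ.

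**Figure D4:**
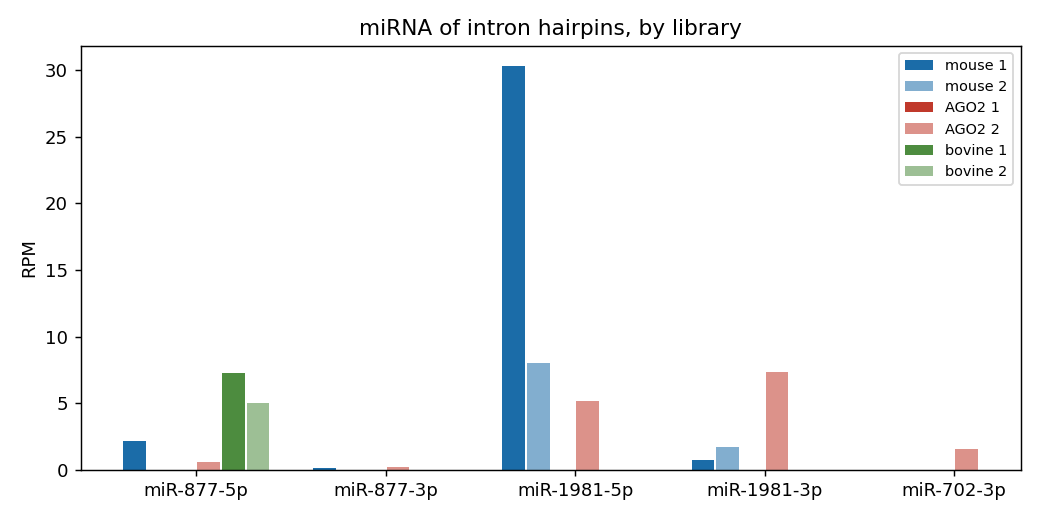
Level in RPM of the miRNA of the hairpins of miR-877, miR-1981 and miR-702 in each library (bars from 0, darker for library 1 and lighter for library 2). miR-1981-5p reaches 30.3 RPM in mouse library 1, and AGO2 library 1 has no bar because its counts are 0. miR-1981 and miR-702 were analysed in the mouse list alone and have no bovine bars.

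The arms of a hairpin were compared where both were listed. The 5p arm of mir-1981 took 282 of 289 counts in mouse library 1 (97.6%, Wilson 95% interval 95.1 to 98.8%) and 67 of 81 in mouse library 2 (82.7%, 73.1 to 89.4%). In AGO2 library 2 it took 26 of 63 (41.3%, 30.0 to 53.6%), below both mouse libraries, and AGO2 library 1 had neither arm. The 5p arm of mir-877 took 20 of 21 counts in mouse library 1 (95.2%, 77.3 to 99.2%) and 3 of 4 in AGO2 library 2, and the other mouse and AGO2 libraries had neither arm. In bovine, miR-320-5p and miR-877-3p were at 0 in both libraries, beside 38477 and 30716 counts of miR-320a and 68 and 53 of miR-877. These zeros allow up to 0.319 and 0.283 RPM. bta-miR-320b, whose sequence shares a run of 16 bases with miR-320a but starts elsewhere in it and so has another seed, had 6 and 3 counts.

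A predicted miRNA in each list resembled miR-320. In mouse, a prediction on chromosome 9 shared a run of 18 bases with miR-320-3p and had 4 and 0 counts in mouse and 1 and 1 in AGO2. In bovine, a prediction on chromosome 16 shared a run of 17 bases with miR-320a and had 18 and 25 counts. The miRDeep2 scores of these precursors, the log-odds of a genuine hairpin, were 2.5 and 3.6. Reads of such near-identical sequences may be shared between lines.

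Other miRNA with an unusual path to the mature form gave the following counts. Beyond the members, 4 miRNA of 4 further mirtron hairpins were listed in mouse, and their highest level was 4.17 RPM, reached by miR-3102-3p in AGO2 library 2. None of them passed the filter of the test. Of miR-451a, which AGO2 cuts in place of Dicer, and of miR-664, miR-1291 and miR-1839, which stem from small nucleolar RNA, 6 lines were listed, 3 were tested, 1 was called higher and 1 lower in AGO2, against 27.8% called among all tested miRNA. Both calls were arms of miR-1839. miR-1224 was also looked for by the name of its hairpin, and no line of it was found in the mouse list.

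miR-451a had 11706 and 5397 RPM in mouse and 26598 and 9837 RPM in AGO2. Its ranges overlapped, and its log2 fold change of 1.23 ± 0.49 (SE) had an edgeR adjusted p of 0.0652. Over the alternatives the adjusted p of miR-451a ran from 0.0146 to 0.514, so its call depends on the setting. The arms of miR-1839 changed in opposite directions. miR-1839-5p fell from 657 and 377 RPM in mouse to 42.0 and 61.9 RPM in AGO2 (log2 fold change -3.14 ± 0.69, edgeR adjusted p = 0.00196), and the call was lost without AGO2 library 1 (edgeR adjusted p = 0.0530). miR-1839-3p rose from 1.72 and 2.74 RPM to 29.7 and 84.1 RPM (log2 fold change 4.83 ± 1.20, edgeR adjusted p = 0.00428). miR-1839-3p passed the filter only through AGO2 library 2, in the group where it was high. Without a filter its log2 fold change was 4.75 (edgeR adjusted p = 0.0279), and its call was lost without mouse library 1 (edgeR adjusted p = 0.0902). Both arms of miR-664 stayed under the filter, with miR-664-5p at 9.79 and 2.62 RPM in mouse and 28.4 and 8.13 RPM in AGO2, and miR-664-3p at 4.09 and 3.46 RPM in mouse and 7.67 and 17.9 RPM in AGO2.

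The miRNA most like miR-320-3p and miR-484 over the 4 mouse and AGO2 libraries were found by the root mean square distance of centred log2 CPM among 198 others that reached 100 RPM. For miR-320-3p they were miR-423-5p, miR-214-3p and miR-652-3p, at distances of 0.33, 0.39 and 0.47. miR-423-5p had 196 and 30.9 RPM in mouse and 56.8 and 37.3 RPM in AGO2, and reached 100 RPM in mouse library 1 only. For miR-484 they were let-7i-3p, miR-7a-1-3p and miR-339-5p, at 0.27, 0.37 and 0.48. let-7i-3p had 10.5 and 9.89 RPM in mouse and 42.5 and 138 RPM in AGO2, and reached 100 RPM in AGO2 library 2 only. These miRNA were picked by their values in the same 4 libraries, so a shared pattern follows from the choice and is no separate result.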

How the data were processed

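Members and lists were chosen with earlier results of these data known. Reads trimmed of poly-A by the authors and 17 to 28 nt long were assigned by the quantifier of miRDeep2 to precursors from miRBase 20 or predicted. Per the submitters' processing notes the builds were GRCm38 and UMD3.1. The files deposited hold raw counts for each mature miRNA. The authors took the score of each predicted precursor from miRDeep2. RPM were computed over the summed counts of each library, and the limit of a count of 0 was set at 3 counts. Every member is given, the rule for named miRNA being membership, a list of other unusually made miRNA (values above 10 RPM) and the 3 nearest in likeness (prior count 2). Libraries were numbered in the order of their records.

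The count tests used edgeR 4.0.16 under R 4.3.3 (TMM factors, quasi-likelihood test, Benjamini-Hochberg adjustment), with the SE taken as the size of the log2 fold change over the square root of F. Species were matched by the names in the study's table, which gave 251 pairs. Alternatives were DESeq2 1.42.0, edgeR with the size factors of DESeq2 or with library totals only, no filter, a filter at 100 RPM, equal names between species, a quadratic trend on GC content removed, and each library left out. The procedure was also run on simulated counts, with a spread between libraries typical of the level of each miRNA. A wider spread, such as that of miR-320-3p in mouse, was not simulated. The outcome is not reported here. Tables and figures were made in Python 3.11.15 with NumPy 2.4.6, pandas 2.3.3, matplotlib 3.10.9 and SciPy 1.17.1.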

Additional observations from a re-analysis of the deposited data

How the results depend on the processing

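In AGO2 over mouse, 1 member was called in the main fit and 2 without a filter, with the GC trend removed and with a filter at 100 RPM, and 1 to 2 with a library left out. The second was miR-320-3p, whose log2 fold change was -2.08 without a filter (edgeR adjusted p = 0.0116), -1.67 with the GC trend removed and -1.74 with a filter at 100 RPM (edgeR adjusted p = 0.0259). Over the alternatives other than leaving out a library its edgeR or DESeq2 adjusted p ran from 0.0116 to 0.127, and with a library left out its log2 fold change ran from -2.70 to 0.43. The second call without AGO2 library 2 was miR-1981-5p, fitted against a lone library at 0, which gives no bound. miR-484 was called in every fit, at 2.38 to 3.04 other than leaving out a library and 2.11 to 3.80 with one left out. The count of called miRNA was 83, and 52 to 85 with a library left out, lowest without mouse library 1.

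In bovine over mouse, 1 member was called, and 0 to 2 with a library left out. miR-484 had -2.28 to -1.53 other than leaving out a library and -2.35 to -1.66 with one left out. miR-320-3p had 0.43 to 3.61 with one left out, and matching by equal names leaves it out, since its bovine name is miR-320a. The count of called miRNA was 88, rose to 144 without a filter, and was 46 to 119 with a library left out, lowest without bovine library 2, with 52 without bovine library 1. The cause of these moves was not tested. Library totals alone moved the median log2 fold change of all tested miRNA from 0.04 to 0.51 in bovine and from -0.12 to -0.26 in AGO2. The 34 levels and the arm share of mir-1981 in mouse moved by less than the SD between libraries under their alternatives, and the 2 bovine arm shares, at 0% and 100%, did not move. No paired analysis was possible because the labels give no replicate number that groups share. The smallest difference that could be detected in the rare members was not tested.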

Other observations

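The arm shares of hairpins from small nucleolar RNA are given as values. The 5p arm of mir-1839 took 99.7% and 99.3% of the counts of the hairpin in mouse, and 58.6% and 42.4% in AGO2. The AGO2 libraries were below the mouse libraries, as AGO2 library 2 was for mir-1981 on 63 counts. Hairpins outside these lists also had arms that parted in AGO2 over mouse. The log2 fold change was -3.25 for let-7d-5p and 7.55 for let-7d-3p, and the other way for miR-126a (5p 1.18, 3p -1.30). The share of all hairpins whose arms shift in either way was not counted. The 5p arm of mir-664 took 70.5% and 43.1% in mouse and 78.7% and 31.3% in AGO2, and its groups overlapped.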
